A study of Mus musculus with 4 samples.

Results

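The 70 clustered histone and linker histone genes of the mouse were described in germ cells from cultured fetal testes. They are the genes whose symbol is built as H1f, H2ac, H2bc, H3c or H4c followed by a number, and they were 70 of the 36088 genes measured. There were 11 linker genes (H1), 18 H2A genes, 17 H2B genes, 12 H3 genes and 12 H4 genes. RNA was sequenced from male germ cells of wild-type (WT) mice, sorted out of the cultured testes. The cultures held either CBR-5884, an inhibitor of serine metabolism known to act on the enzyme Phgdh, or its solvent DMSO, and the titles of all samples give day 14. Each condition had 2 libraries that the design text calls biological replicates. The study asked about serine metabolism in the differentiation of these cells. The sources used here do not say how testes were assigned to cultures, and p-values therefore measure the spread between these samples. The table numbers the libraries of each condition 2 and 4, and values below come in that order.

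Nucleosomes are built from the core histones H2A, H2B, H3 and H4, and linker histones of the H1 type bind the DNA between them. Most core histone genes lie in dense clusters, have no introns and are transcribed mainly in S phase, under the control of Npat, when new DNA is packaged. Their mRNAs end in a short stem-loop bound by Slbp instead of a poly(A) tail, while H1f0 and H1f10 lie apart, are not tied to S phase and are polyadenylated. In the male germ line testis forms such as H1f6, H2ac1 and H2bc1 are known to take over part of the chromatin around meiosis.

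Of the 70 genes, 55 lay on chromosome 13, 10 on chromosome 3, 2 each on chromosomes 6 and 15, and 1 on chromosome 11 (GENCODE M21, build GRCm38). The annotation gave 63 of them a single exon, and it named 1, H2ac14, an unprocessed pseudogene. The stem-loop is shown because it is the feature that sets these mRNAs apart. It was searched on the transcript strand only, as a 6-base arm that begins GG and ends CT, a 4-base loop that begins TTT and the reverse complement of the arm. It occurred in the transcripts of 41 of 70 members (58.6%), against 0.137% of the 35838 genes of the table with an annotated transcript. It took 6 forms, below with both arms of the stem in capitals and each gene type that carried them:
H1, H2A, H2B and H3 (24 genes, H2ac24 among them): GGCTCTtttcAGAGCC
H4 (6 genes): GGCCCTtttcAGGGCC
H1, H2B and H3 (6 genes, H1f6 among them): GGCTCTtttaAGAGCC
H4 (2 genes, H4c9 among them): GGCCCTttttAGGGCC
H4 (2 genes, H4c2 among them): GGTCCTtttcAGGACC
H2A (H2ac20): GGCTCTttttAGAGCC
The search allowed only a loop of 4 bases, so other loop lengths would not have been found. The forms with GGCC or GGTC at the start of the stem occurred in H4 genes. For 11 members, H2ac1, H2bc1, H2ac13 and H3c10 among them, the annotated transcript has no untranslated end, so it could not be found there. The polyadenylation signal AATAAA stood in the last 60 bases of 16 members (22.9%, against 44.3% of the table's genes), H1f0 and H1f10 included, and 8 members carried both features.

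The genes of a type are near-copies of each other, which limits what short reads can tell apart. The H2A genes show this best, and H2ac24 (chr13:21833026-21833507, minus strand), the H2A gene with the highest level, is set below beside 4 others. These are the first 90 coding bases of each (GENCODE M21, GRCm38), with capitals for bases that differ from H2ac24:
H2ac24: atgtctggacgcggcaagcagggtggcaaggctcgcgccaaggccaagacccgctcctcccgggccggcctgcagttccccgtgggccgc
H2ac23: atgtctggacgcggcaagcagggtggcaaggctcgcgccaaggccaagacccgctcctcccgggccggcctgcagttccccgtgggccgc
H2ac13: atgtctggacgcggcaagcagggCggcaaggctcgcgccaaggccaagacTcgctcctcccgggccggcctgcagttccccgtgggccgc
H2ac15: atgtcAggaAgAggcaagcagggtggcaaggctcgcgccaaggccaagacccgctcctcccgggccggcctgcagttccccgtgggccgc
H2ac19: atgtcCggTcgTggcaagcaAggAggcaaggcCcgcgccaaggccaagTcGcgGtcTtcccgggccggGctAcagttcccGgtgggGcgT
Over all 393 coding bases H2ac23 had 0 differences from H2ac24, H2ac13 had 6, H2ac15 had 12 and H2ac19, which lies on chromosome 3, had 34. Of the 31-base words of the H2ac24 transcript, 93.4% also occurred in another gene. The 30 words found in H2ac24 alone all began in the first 30 bases of its 482-base transcript, whose coding part runs from base 33 to base 425. A read wholly inside the coding part therefore could not be assigned to H2ac24 by its sequence.

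Promoters were read for the 62 members that have an entry in the RefSeq table (GRCm38.p6), from 250 bases before to 50 bases after the start. Of these, 12 (19.4%) held the octamer ATTTGCAT on either strand, against 1.74% of all 32851 promoters of that length in the table. The octamer stood in 6 of 17 H2A and 6 of 14 H2B promoters and in 0 of the H1, H3 and H4 promoters. CCAAT stood in 51 of 62 (82.3%, against 37.4% of all promoters), TATAAA in 34 (54.8%, against 13.6%) and GGTCC in 27 (43.5%, against 45.5%), and 10 of 11 H4 promoters held GGTCC. The bases before the start are shown for H2ac24, which had the highest level of the core genes, and for the testis form H2ac1, whose window lies between H2ac1 and H2bc1, genes 305 bases apart that are read away from each other. RefSeq places the start of H2ac24 at the first coding base, 32 bases inside the GENCODE transcript, so the 218 bases before the GENCODE start are given for it, and the 250 bases before the RefSeq start for H2ac1. Capitals mark CCAAT and TATAAA and the octamer, on either strand:
H2ac24, chr13:21833508-21833725, minus strand: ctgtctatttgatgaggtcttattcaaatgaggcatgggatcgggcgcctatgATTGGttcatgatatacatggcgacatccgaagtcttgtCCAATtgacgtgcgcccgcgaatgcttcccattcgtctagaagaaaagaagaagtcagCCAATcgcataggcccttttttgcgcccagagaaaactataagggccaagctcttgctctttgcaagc
H2ac1, chr13:23934187-23934436, plus strand: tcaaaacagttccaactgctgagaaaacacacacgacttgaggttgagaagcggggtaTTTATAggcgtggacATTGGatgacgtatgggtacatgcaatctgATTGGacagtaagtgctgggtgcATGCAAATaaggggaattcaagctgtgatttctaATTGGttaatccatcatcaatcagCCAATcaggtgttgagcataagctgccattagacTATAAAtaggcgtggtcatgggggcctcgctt
The H2ac24 stretch held CCAAT but neither TATAAA nor the octamer in these exact letters, while the H2ac1 stretch held all 3. No binding or chromatin was measured, so these letters are a description of the sequence.

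The mRNA of the 70 member genes, which leave out the variants outside the clusters, made up little of the measured transcripts. Levels are in TPM, a share of all transcripts corrected for transcript length that the authors computed. The 70 genes together had 618 and 596 TPM with CBR-5884, against 561 and 500 TPM with DMSO. That was 0.0620 and 0.0616% of each library's TPM with CBR-5884, and 0.0559 and 0.0501% with DMSO. The total was carried by H1f10, H2ac24 and H1f0, which took 72.4 and 71.7% of it with CBR-5884 and 65.4 and 55.9% with DMSO. Mean levels over the 4 libraries were 165 TPM for H1f10, 120 TPM for H2ac24 and 95.3 TPM for H1f0. Only H2ac12 and H4c9 also lay above 10 TPM, 37 members lay between 1 and 10 TPM, and 28 lay under 1 TPM. The 41 members with a stem-loop in their transcript had a median level of 1.27 TPM and the 29 without it 3.52 TPM. The 29 include the 11 members whose annotated transcript has no untranslated end, where a loop could not be found. Members with AATAAA in the last 60 bases had a median of 0.870 TPM and those without it 2.26 TPM. The sources used here do not say whether the library kit selected polyadenylated RNA, which would miss mRNAs that end in the stem-loop. A total of 18 members were listed at 0 in at least 1 library. Without H1f10, H2ac24 and H1f0 the other 67 members summed to 171 and 169 TPM with CBR-5884, against 194 and 220 TPM with DMSO, so that the sum of the rest lay lower with CBR-5884 while the total lay higher. The 3 genes were left out because of their level, and neither sum was tested.

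**Figure D1:**
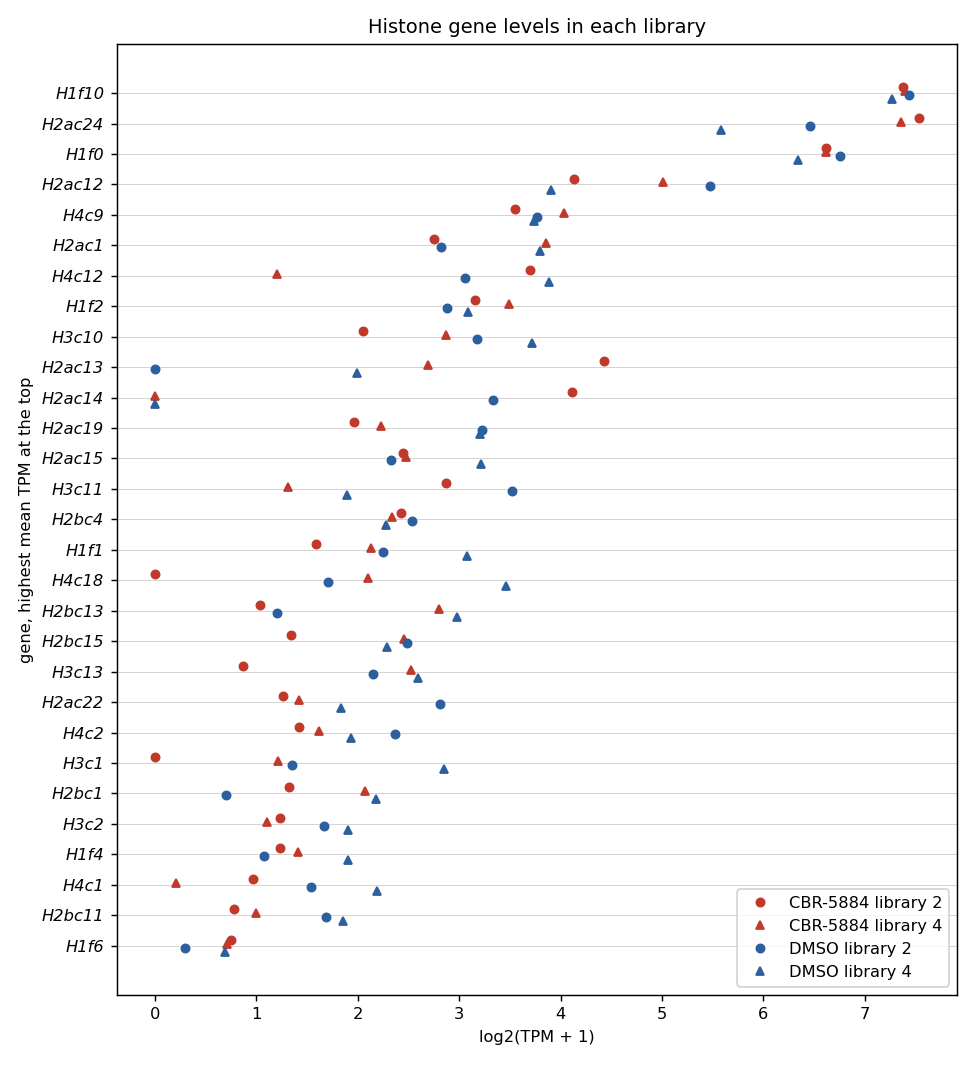
Levels of 29 histone genes as log2(TPM + 1) in each of the 4 libraries, ordered by mean TPM with the highest at the top; circles are the libraries numbered 2 and triangles those numbered 4, red for CBR-5884 and blue for DMSO. Only H1f10, H2ac24 and H1f0 stand above 50 TPM, and of these the 2 red points lie above both blue points only for H2ac24.

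The libraries themselves were alike. Correlations of log2(TPM + 1) between libraries across all fitted genes, which are not independent, lay between 0.977 and 0.986, and 22100 to 22988 genes had a TPM above 0. The highest correlation was between conditions, for CBR-5884 library 2 with DMSO library 2 (0.986). It lay above those within CBR-5884 (0.981) and within DMSO (0.978). The germ cell markers Dazl, Ddx4, Dppa3, Mael, Tex101 and Nanos3 summed to 1888 and 1892 TPM with CBR-5884 and 1877 and 1856 TPM with DMSO. Markers of Sertoli cells were low but present, with 218 and 179 TPM over 7 genes with CBR-5884 and 259 and 151 TPM with DMSO. Their sum was lowest in DMSO library 4 and highest in DMSO library 2. Leydig cell markers summed to between 4.48 and 6.70 TPM over 5 genes, endothelial markers to between 7.79 and 8.89 TPM over 3, blood and macrophage markers to between 2.85 and 7.51 TPM over 5 (2 at 0 in all libraries), and peritubular and stromal markers to between 38.0 and 44.4 TPM over 5. In bulk RNA, fewer cells of a type and less RNA per cell cannot be told apart.

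No histone gene passed the test between CBR-5884 and DMSO. The test was limma on log2(TPM + 1), fitted to the 14920 genes whose TPM averaged 1 or more, with p-values adjusted over all of them and a threshold of 0.05. Of the members, 42 reached that level (5 H1, 12 H2A, 10 H2B, 7 H3 and 8 H4) and 28 did not. With limma 0 of the 42 were higher and 0 lower at the adjusted threshold, where the background over all tested genes was 0% in both directions. At an unadjusted p under 0.05, limma placed 2 members higher (4.76% against a background of 1.51%), H2ac24 and H2ac13. It placed 5 lower (11.9% against a background of 2.15%), H2ac19, H4c1, H2bc11, H3c10 and H2ac22. These counts moved with the libraries. Leaving out CBR-5884 library 2 gave 1 higher member, and leaving out DMSO library 4 gave 5. Lower members numbered 11 when DMSO library 2 was left out and 3 when DMSO library 4 was. The smallest limma adjusted p among the members was 0.725, for H2ac24 and H2ac19, and every other fitted member was at 0.998 or above.

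More of the fitted members lay lower than higher with CBR-5884. Both CBR-5884 libraries lay above both DMSO libraries in 4 of 42 (9.52%, against a background of 13.6%) and below both in 12 of 42 (28.6%, against a background of 17.7%). Fold changes were negative for 27 (64.3%, against 52.8% of all tested genes) and positive for 15 (35.7%, against 47.2%). The median log2 fold change, CBR-5884 over DMSO, was −0.33 over the 42 members and −0.01 over all tested genes. The median over the members rested in part on single libraries, since leaving out CBR-5884 library 2 gave −0.0966, leaving out DMSO library 4 gave −0.20 and leaving out DMSO library 2 gave −0.52, and it was −0.12 over all 70 members with no filter on level. By type the medians were 0.04 for H1, −0.06 for H2A, −0.10 for H2B, −0.68 for H3 and −0.71 for H4. With 1 library left out in turn they ranged from −0.0512 to 0.12 for H1, −0.41 to 0.14 for H2A, −0.75 to 0.37 for H2B, −0.93 to −0.49 for H3 and −0.63 to −0.33 for H4, so only those of H3 and H4 stayed on one side of 0. With no filter on level the medians by type were 0.04 for H1, −0.15 for H2A, 0.05 for H2B, −0.62 for H3 and −0.29 for H4. Most members were measured with little precision. The 95% limits lay a median of 1.03 on the log2 scale from the estimate for the members, and 0.37 for all tested genes. A log2 fold change of 1 or more in either direction was seen in 8 of 42 (19%, against a background of 1.31%), which has to be read beside that precision. Just inside the level filter was H4c11, with a mean of 1.27 TPM, and just outside it were H3c14 at 0.984 TPM and H2bc3 at 0.970 TPM.

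**Figure D2:**
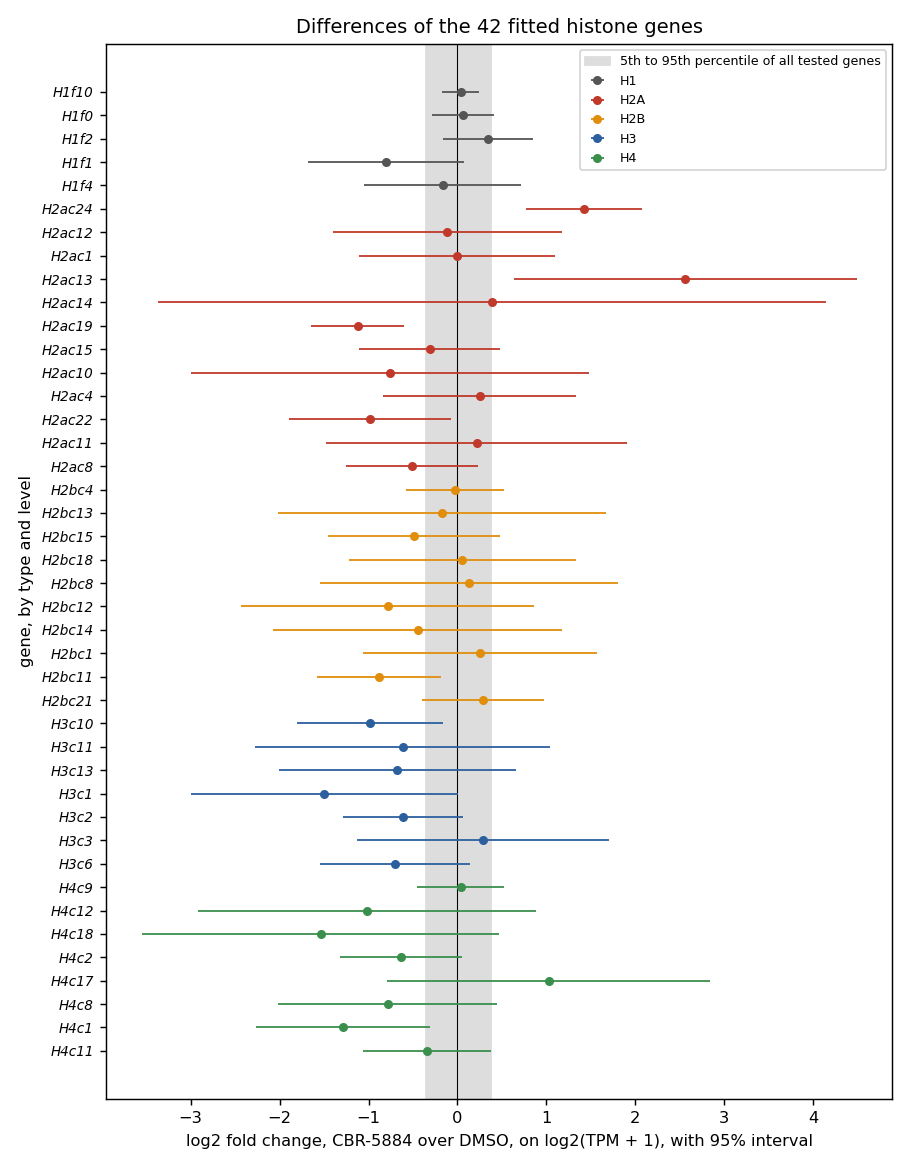
Log2 fold change, CBR-5884 over DMSO, on log2(TPM + 1) with its 95% interval from limma for each of the 42 fitted members, by type and by level within a type; the grey band holds the 5th to 95th percentile of all 14920 tested genes. The H1 genes of high level have narrow intervals around 0, H2ac24 and H2ac13 lie to the right, and 6 of 7 H3 genes and 6 of 8 H4 genes lie to the left.

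The 2 abundant linker histones had the narrowest intervals of the fitted members and were at similar levels in both conditions. H1f10 (chr6:87980421-87981637), the linker histone also called H1x, had 166 and 167 TPM with CBR-5884, against 173 and 153 TPM with DMSO. H1f0 (chr15:79028450-79030504), the form that accumulates in cells that leave the cycle, had 96.9 and 97.0 TPM with CBR-5884 and 107 and 80.0 TPM with DMSO. For both genes the CBR-5884 libraries lay between the DMSO libraries. The log2 fold changes were 0.04 with a 95% interval of −0.17 to 0.25 for H1f10 and 0.07 with an interval of −0.28 to 0.41 for H1f0. Neither transcript shared a 31-base word with another gene, so their reads could be assigned by sequence.

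The H1 genes of the chromosome 13 cluster were far lower. H1f2, a widely used somatic subtype, had 7.93 and 10.3 TPM with CBR-5884 and 6.38 and 7.47 TPM with DMSO. H1f1, a somatic subtype known to be abundant in the testis, had 2.00 and 3.38 TPM with CBR-5884, against 3.73 and 7.45 TPM with DMSO. H1f4, another somatic subtype, had 1.35 and 1.65 TPM with CBR-5884 and 1.10 and 2.74 TPM with DMSO. The groups did not overlap for H1f2, higher with CBR-5884, and for H1f1, lower with CBR-5884, but both 95% intervals included 0 (−0.16 to 0.85 for H1f2 and −1.68 to 0.08 for H1f1). The H1f1 value of −0.80 became −0.38 when DMSO library 4 was left out, −0.53 when CBR-5884 library 2 was and −1.22 when DMSO library 2 was, and the H1f2 value of 0.34 was 0.18 without CBR-5884 library 4. H1f3 and H1f5, the remaining somatic subtypes of the cluster, averaged 0.235 and 0.877 TPM over the 4 libraries. H1f8, the linker histone of oocytes, averaged 0.260 TPM, and H1f7 and H1f9, linker histones of spermatids, averaged 0.0650 and 0.0563 TPM. The 11 linker genes summed to 275 and 282 TPM with CBR-5884 and 292 and 253 TPM with DMSO, a log2 ratio of geometric means of 0.04. The ratio was −0.07 without DMSO library 4, and the 6 cluster genes, summed alone after the data were seen, gave 12.3 and 17.5 TPM with CBR-5884 and 12.04 and 20.2 TPM with DMSO.

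Among the H2A genes, H2ac24 stood apart in level and in difference. It had 185 and 163 TPM with CBR-5884, against 86.8 and 46.9 TPM with DMSO. Both CBR-5884 libraries lay above both DMSO libraries, and the DMSO libraries differed more from each other than the CBR-5884 libraries did. The means were 174 ± 15.6 TPM with CBR-5884 and 66.8 ± 28.2 TPM with DMSO (SD, n = 2 each). The log2 fold change was 1.43 (SE 0.27, 95% interval 0.78 to 2.08), and the limma adjusted p of 0.725 did not pass the threshold. The deposited scaled reads, a signal from which counts of reads were not recovered, were 1701 and 1485 with CBR-5884 and 804 and 429 with DMSO. In the 4 fits without a library the fold change ranged from 0.99 without DMSO library 4 to 1.86 without DMSO library 2. Its sign could not turn in these fits, since the groups do not overlap. DMSO library 4, the lowest in H2ac24, was also the lowest in the sum of the Sertoli cell markers, while DMSO library 2 was the highest in it. Of these markers Gata4 did not follow the sum, with 9.61 and 8.97 TPM with CBR-5884 and 11.2 and 11.7 TPM with DMSO. The part of Sertoli cells in the H2ac24 value was not tested.

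Sequence sharing touches this value directly, since the coding bases of H2ac24 and H2ac23 printed above are the same. H2ac23 was listed at 0 and 0 TPM with CBR-5884 and at 0.815 and 0 TPM with DMSO. The sum of both genes was 185 and 163 TPM with CBR-5884, against 87.6 and 46.9 TPM with DMSO. With H2ac23 listed at or near 0, this sum could hardly differ from H2ac24 alone. It does not show how reads of the shared bases were split. The other 17 H2A genes together had 87.0 and 65.9 TPM with CBR-5884 and 90.2 and 63.5 TPM with DMSO, a log2 ratio of geometric means of 0.00. All 18 H2A genes summed to 272 and 229 TPM with CBR-5884, against 177 and 110 TPM with DMSO, a log2 ratio of 0.83. H2ac24 alone made up 68.0 and 71.2% of that sum with CBR-5884 and 49.0 and 42.5% with DMSO. In a sum chosen after the data were seen, 7 further genes of the table that share words with H2ac24 were added, led by the variant genes H2ax and H2aj. This sum of 25 genes was 426 and 361 TPM with CBR-5884 and 335 and 245 TPM with DMSO, a log2 ratio of 0.45. H2ax, the variant phosphorylated at DNA breaks, holds 26.6% of the H2ac24 words and had 72.5 and 69.8 TPM with CBR-5884 and 77.4 and 64.9 TPM with DMSO.

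**Figure D3:**
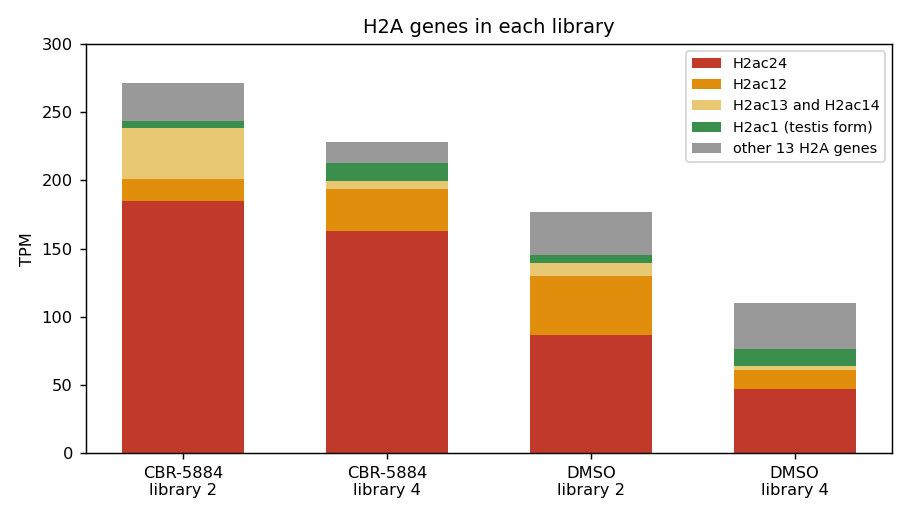
TPM of the 18 H2A genes stacked in each library, with CBR-5884 libraries on the left and DMSO libraries on the right; red is H2ac24, orange H2ac12, yellow H2ac13 with H2ac14, green the testis form H2ac1 and grey the other 13 genes. H2ac24 holds 68.0 and 71.2% of the bar with CBR-5884 and 49.0 and 42.5% with DMSO, while what lies above the red part is of similar height in libraries of the same number.

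The other H2A genes varied widely between libraries of 1 condition. H2ac12, the next most abundant, had 16.6 and 31.3 TPM with CBR-5884 and 43.4 and 13.99 TPM with DMSO, so the groups overlapped. H2ac13 had 20.53 and 5.44 TPM with CBR-5884, against 0 and 2.97 TPM with DMSO, and did not overlap (log2 fold change 2.56, 95% interval 0.64 to 4.49). For H2ac13 the fold change became 1.57 when DMSO library 2 was left out, 1.69 when CBR-5884 library 2 was, and 4.27 with a pseudocount of 0.1. Its near-copy H2ac14, which holds 82.9% of the H2ac13 words, was listed at 16.3 and 0 TPM with CBR-5884 and 9.07 and 0 TPM with DMSO. Summed, H2ac13 and H2ac14 gave 36.9 and 5.44 TPM with CBR-5884 and 9.07 and 2.97 TPM with DMSO, and these sums overlapped. H2ac15 had 4.46 and 4.55 TPM with CBR-5884 and 4.03 and 8.29 TPM with DMSO, which overlapped as well. H2ac10, H2ac4, H2ac11 and H2ac8 averaged between 1.55 and 3.51 TPM, and the groups overlapped for the first 3 of these.

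H2ac19 and H2ac22 lay lower with CBR-5884. H2ac19 (chr3:96239749-96240276), from the chromosome 3 cluster, had 2.88 and 3.69 TPM with CBR-5884, against 8.36 and 8.19 TPM with DMSO. The log2 fold change was −1.12 (SE 0.21, 95% interval −1.64 to −0.60), with a limma adjusted p of 0.725. All of its words occur in its neighbour H2ac18, which was listed at 3.61 TPM in CBR-5884 library 2 and at 0 in the other 3 libraries. The sum of H2ac19 and H2ac18 was 6.498 and 3.69 TPM with CBR-5884 and 8.36 and 8.19 TPM with DMSO. In this sum the groups stayed apart but by less. It left out H2af-ps2, a gene outside the members that holds 49.6% of the H2ac19 words. H2af-ps2 lay higher with CBR-5884, at 3.84 and 1.30 TPM, against 0.496 and 0.499 TPM with DMSO. The member H2ac20, which holds 42.6% of these words, lay lower with CBR-5884. With H2af-ps2 and H2ac20 added to the sum, CBR-5884 library 2 lay above both DMSO libraries and CBR-5884 library 4 below both. The groups then overlapped. This wider sum was chosen after the data were seen, and genes that share fewer of these words were left out. H2ac22 had 1.397 and 1.67 TPM with CBR-5884, against 6.01 and 2.57 TPM with DMSO (log2 fold change −0.98, 95% interval −1.89 to −0.07). Omitting DMSO library 2 gave −0.495 for H2ac22, and omitting DMSO library 4 gave −1.47.

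H2B genes were low throughout and followed the library number more than the condition. The 17 genes summed to 19.5 and 36.3 TPM with CBR-5884 and 23.8 and 45.2 TPM with DMSO, a log2 ratio of −0.30. In both conditions the sum was higher in library 4 than in library 2. Leaving out CBR-5884 library 2 turned the ratio to 0.14 and leaving out DMSO library 4 to 0.16, so its direction rested on single libraries. Both libraries numbered 4 lay above both numbered 2 for 6 of 10 fitted H2B genes, and for 12 of the 42 fitted members (28.6%, against a background of 17.8%). The reverse order was seen for 6 of the 42 (14.3%, against a background of 21.8%). H2bc13 is an example, with 1.04 and 5.97 TPM with CBR-5884 and 1.30 and 6.89 TPM with DMSO. H2bc4, the most abundant H2B gene, did not follow this, with 4.38 and 4.04 TPM with CBR-5884 and 4.78 and 3.85 TPM with DMSO. Over all tested genes, too, the library number separated the libraries more often than the condition did. By number, 17.8% lay higher and 21.8% lower in both libraries numbered 4. By condition, 13.6% lay higher and 17.7% lower in both CBR-5884 libraries. The sources used here do not say what the numbers stand for.

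Only H2bc11 among the fitted H2B genes lay lower with CBR-5884 without overlap. It had 0.716 and 0.991 TPM with CBR-5884, against 2.22 and 2.62 TPM with DMSO (log2 fold change −0.88, 95% interval −1.58 to −0.19). H2bc21 was the H2B gene higher without overlap, with 1.55 and 1.86 TPM with CBR-5884 and 1.27 and 1.147 TPM with DMSO, at 0.29 on the log2 scale (interval −0.40 to 0.98). H2bc15 had 1.53 and 4.47 TPM with CBR-5884 and 4.61 and 3.87 TPM with DMSO, which overlapped.

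H3 genes, which encode the replication-coupled forms of H3, had the largest difference in summed TPM of the histone types on the log2 scale. The 12 genes summed to 15.8 and 20.7 TPM with CBR-5884, against 29.5 and 41.9 TPM with DMSO. Both CBR-5884 sums lay below both DMSO sums, at a ratio of geometric means of 0.515 (−0.96 on the log2 scale). Without H3c10, the most abundant, the sums were 12.7 and 14.3 TPM with CBR-5884 and 21.5 and 29.7 TPM with DMSO, a log2 ratio of −0.90. The scaled reads behind the 12 genes were 195 and 241 with CBR-5884 and 309 and 479 with DMSO. Leaving out each library gave log2 ratios from −1.21 to −0.71. No test was made of the sums, because 2 against 2 libraries cannot reach the threshold in an exact test.

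Most single H3 genes lay in the same direction, with wide intervals. H3c10 had 3.15 and 6.33 TPM with CBR-5884, against 8.04 and 12.2 TPM with DMSO (log2 fold change −0.99, 95% interval −1.81 to −0.16), and its fold change was −0.58 without CBR-5884 library 2. H3c1 had 0 and 1.31 TPM with CBR-5884, against 1.55 and 6.20 TPM with DMSO, and H3c2 had 1.34 and 1.149 TPM with CBR-5884, against 2.16 and 2.74 TPM with DMSO. With H3c6, these were the 4 of 7 fitted H3 genes without overlap, all lower with CBR-5884. H3c11 had 6.30 and 1.48 TPM with CBR-5884 and 10.5 and 2.72 TPM with DMSO, and its groups overlapped, with library 2 above library 4 in each condition. H3c13, of the chromosome 3 cluster, had 0.828 and 4.77 TPM with CBR-5884 and 3.45 and 5.04 TPM with DMSO. H3c3 was the 1 fitted H3 gene with a positive fold change (0.29, 95% interval −1.12 to 1.71). Of the words of H3c10, 94.2% occur in other genes, so its own share of reads is uncertain.

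H4 genes were led by H4c9, which was at a similar level in both conditions. H4c9 (chr13:22040636-22041362) had 10.7 and 15.4 TPM with CBR-5884 and 12.6 and 12.3 TPM with DMSO, and both DMSO libraries lay between the CBR-5884 libraries (log2 fold change 0.04, 95% interval −0.46 to 0.53). The 12 genes summed to 35.8 and 27.9 TPM with CBR-5884, against 37.9 and 49.6 TPM with DMSO, a log2 ratio of −0.46. Without H4c9 the other 11 gave 25.1 and 12.6 TPM with CBR-5884 and 25.3 and 37.2 TPM with DMSO, a log2 ratio of −0.79. In that sum library 2 was nearly the same in both conditions, and the difference came from the libraries numbered 4.

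H4c1 had 0.950 and 0.154 TPM with CBR-5884, against 1.91 and 3.57 TPM with DMSO (log2 fold change −1.28, 95% interval −2.26 to −0.30; −2.40 with a pseudocount of 0.1). H4c2 had 1.68 and 2.07 TPM with CBR-5884, against 4.17 and 2.83 TPM with DMSO, also without overlap, and H4c11 was the other fitted H4 gene that did not overlap. H4c12 had 11.99 and 1.30 TPM with CBR-5884 and 7.31 and 13.8 TPM with DMSO, and H4c18 had 0 and 3.28 TPM with CBR-5884 and 2.27 and 10.04 TPM with DMSO. Both of these overlapped. Their log2 fold changes were −1.02 and −1.54, and both rested on single libraries. That of H4c12 was 0.23 without CBR-5884 library 4, and that of H4c18 became −0.49 when CBR-5884 library 2 was left out, −0.66 when DMSO library 4 was, −2.42 when DMSO library 2 was and −2.59 when CBR-5884 library 4 was. H4c17 was the H4 gene with the highest fold change (1.03, 95% interval −0.79 to 2.84).

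**Figure D4:**
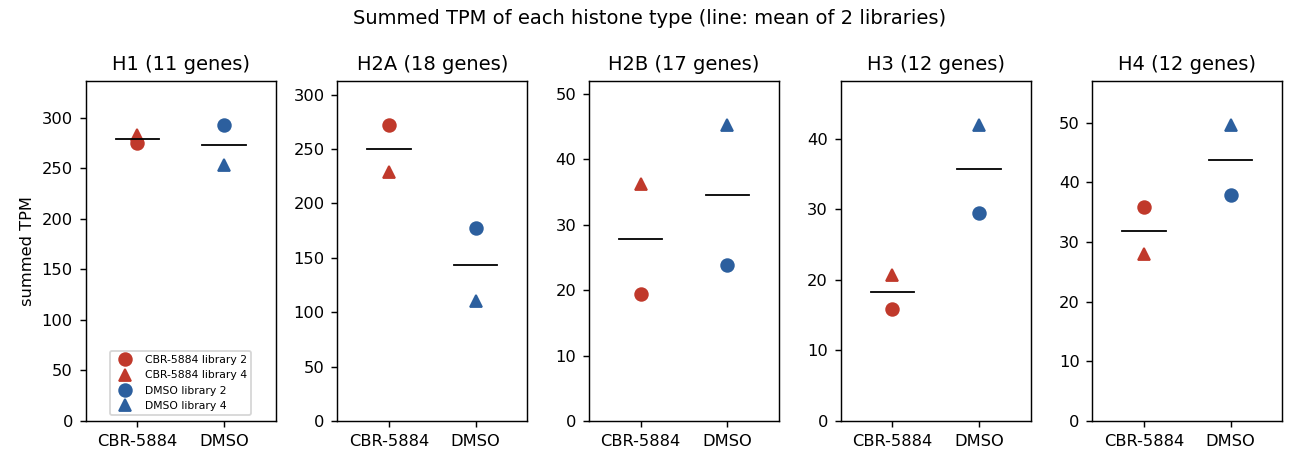
Summed TPM of all members of each histone type in each library, with CBR-5884 left of DMSO in every panel and a line at each mean of 2 libraries; each panel has its own axis from 0. The CBR-5884 points lie above the DMSO points for H2A (272 and 229 against 177 and 110 TPM), below them for H3 (15.8 and 20.7 against 29.5 and 41.9 TPM) and for H4, and overlap them for H1 and H2B.

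The testis forms were present at different levels. H2ac1, the testis H2A, had 5.75 and 13.4 TPM with CBR-5884 and 6.08 and 12.9 TPM with DMSO. H2bc1, the testis H2B read from the other side of the same promoter region, had 1.503 and 3.19 TPM with CBR-5884 and 0.628 and 3.53 TPM with DMSO. In both genes library 4 was higher than library 2 in each condition, and the conditions overlapped. The log2 fold changes were −0.01 for H2ac1 (95% interval −1.11 to 1.10), whose sign turned to 0.02 with equal library totals, and 0.25 for H2bc1 (−1.06 to 1.57). H1f6, the testis linker histone H1t of meiotic cells, was near the limit of detection, with 0.680 and 0.638 TPM with CBR-5884 and 0.226 and 0.610 TPM with DMSO. It lay under the level filter and was not fitted. Of the words of H2ac1 11.7% occur in other genes, of those of H2bc1 44.1%, and of those of H1f6 0%.

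How much of a transcript is shared with other genes went along with the spread between libraries. For each fitted member the difference between the 2 libraries of a condition was taken on log2(TPM + 1) and averaged over both conditions. Its median was 1.18 for the 28 fitted members with at least 50% of their words in another gene, and 0.263 for the 14 below that. The median level was similar in both sets, at 3.22 and 3.55 TPM. TPM is corrected for length, so the sets were not matched in transcript length or reads. Below 50%, the shortest transcripts, H2bc18, H2bc1 and H2ac1 (381, 384 and 390 bases), differed by 1.13, 1.109 and 1.035. The longest there, H2bc21 (2620 bases), differed by 0.124. The part of length in the spread was not tested. Over all fitted genes with a mean of 1 to 10 TPM the median difference was 0.313. The largest among the members was that of H2ac14, at 3.72. There were exceptions in each direction, since H2ac19 shares all of its words and differed by 0.15 while H2bc18 shares 7.98% and differed by 1.13. This describes the members and was not tested.

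**Figure D5:**
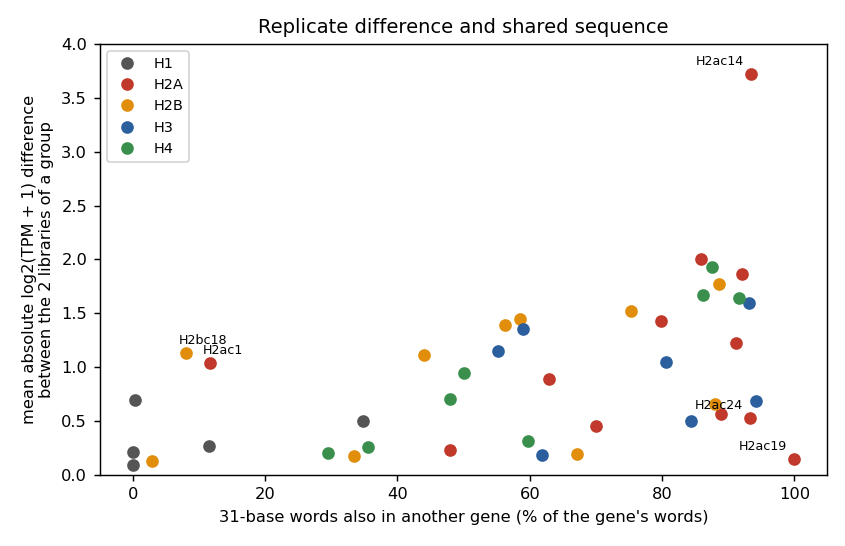
Share of each fitted member's 31-base words that also occur in another gene (x axis, percent) against the mean absolute difference between the 2 libraries of a condition on log2(TPM + 1) (y axis), coloured by type. Members with at least 50% shared words have a median of 1.18 and those below it a median of 0.263, with H2ac14 at the top and H2ac19 at the bottom right.

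Genes that make, process and carry histone mRNA and protein were abundant and differed little. In the list of 24 genes of histone mRNA ends and transcription, limma called 0 higher and 0 lower, 0 higher and 1 lower at an unadjusted p under 0.05, and the median log2 fold change was −0.04, against −0.01 over all tested genes. Fold changes were negative for 16 of the 24 (background 52.8%). The groups did not overlap for 7 that lay lower (background 17.7%) and 1 that lay higher with CBR-5884 (background 13.6%). Slbp, which binds the stem-loop, had 356 and 331 TPM with CBR-5884, against 385 and 368 TPM with DMSO, at −0.13 on the log2 scale (95% interval −0.32 to 0.05). Npat, the activator of clustered histone genes, had 44.2 and 47.3 TPM with CBR-5884 and 46.5 and 44.2 TPM with DMSO. Npat thus overlapped, while Slbp lay slightly lower with CBR-5884 in both libraries. Zfp473, a zinc finger protein that joins the machinery that cuts histone mRNA ends, had 6.11 and 5.17 TPM with CBR-5884, against 8.51 and 8.45 TPM with DMSO (limma adjusted p = 0.998). Ncbp2, a subunit of the cap-binding complex, had 203 and 175 TPM with CBR-5884 and 233 and 212 TPM with DMSO.

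Histone chaperones and variants also differed little, with the exception of H3f3c. Of 21 fitted chaperone and import genes limma called 0, with 0 at an unadjusted p under 0.05, and the median log2 fold change was −0.03. Fold changes were negative for 16 of the 21 (background 52.8%). The groups did not overlap for 5 that lay lower (background 17.7%) and 0 that lay higher with CBR-5884 (background 13.6%). Chaf1a, the large subunit of the factor that loads new H3 and H4 behind the replication fork, had 90.004 and 83.4 TPM with CBR-5884, against 91.4 and 102 TPM with DMSO. Rbbp4, a histone-binding subunit of the same factor, had 413 and 365 TPM with CBR-5884 and 441 and 414 TPM with DMSO. Both lay lower with CBR-5884 without overlap by small amounts. Of 11 fitted variant genes outside the clusters limma called 0, with 0 at an unadjusted p under 0.05 and a median of −0.04. H3f3c had 60.5 and 0.676 TPM with CBR-5884 and 52.7 and 32.7 TPM with DMSO, where 1 CBR-5884 library differed from the other 3. H2az1, which encodes the H2A.Z variant, had 644 and 686 TPM with CBR-5884 and 676 and 723 TPM with DMSO.

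Genes of S phase, in which the clustered histone genes are mainly transcribed, had mostly negative fold changes with CBR-5884. So did the lists of histone mRNA ends and transcription and of chaperones above. Of 26 S phase genes limma called 0 higher and 0 lower, with 0 higher and 1 lower at an unadjusted p under 0.05. The fold change was negative for 21 (background 52.8%), the groups did not overlap for 9, all lower with CBR-5884 (background 17.7%), and the median was −0.07. Mcm7, a subunit of the replicative helicase, had 392.2 and 388 TPM with CBR-5884, against 439 and 439 TPM with DMSO (log2 fold change −0.17, limma adjusted p = 0.998). Mcm2, another subunit, had 335 and 306 TPM with CBR-5884, against 354 and 375 TPM with DMSO. Pcna, the sliding clamp of replication, had 241 and 215 TPM with CBR-5884 and 245 and 233 TPM with DMSO, and its groups overlapped. The medians of the fitted H3 and H4 genes, −0.68 and −0.71, lay further from 0 than that of the S phase genes. With no filter on level the H3 and H4 medians were −0.62 and −0.29. The H3 and H4 values are imprecise, with 95% limits a median of 1.33 and 1.11 from the estimate on the log2 scale. The part of S phase in the histone values was not tested.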

How the data were processed

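The tools were fastp and kallisto, with the build mm10, per the submitters' processing notes, and no versions are given there. Libraries came from 100 ng of total RNA and a TruSeq RNA kit, per the labels' protocols, which do not mention poly(A) selection or strand. The deposited lines repeat gene values over 117403 transcripts. Its TPM and scaled reads per base are signal values made by the authors; TPM summed to 966761 to 1002976 per library. Steps between low scaled reads were 0.891 to 1.11, but 48.5 to 50.2% of low values were whole multiples (tolerance 0.05), so reads were not recovered, and count tests were not used. Library names match a condition but no replicate label. With only 2 pairs, their numbers were not taken as pairs, and the number as a block was kept as an alternative. The correlation of deviations between libraries of the same number was 0.20. Over all tested genes the number separated the libraries more often than the condition did.

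limma 3.58.1 (R 4.3.3, trend) was run two-sided on log2(TPM + 1) over 14920 genes, with Benjamini-Hochberg adjustment and 2 libraries per group; it was tested on simulated data. Fold changes of low genes are understated on this scale. Sums over a type are unlogged TPM. Annotation came from GENCODE M21 (GRCm38, 1-based), promoters from RefSeq. Values are given for the 20 members of highest mean TPM, the linker histones at 1 TPM or more, the testis forms and the 10 members of smallest p; others named were chosen after their values were seen. In the partner lists the 2 genes of smallest p, Slbp, Npat and Pcna are named. Members and lists were chosen with earlier results of these data known. Alternatives covered the pseudocount (0.1), the filter, the unit, scaling, variance, a replicate block and each library left out.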

Additional observations from a re-analysis of the deposited data

How the results depend on the processing

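No member was called under any of the 11 alternatives to the fit. Over all genes, 1 was called higher with robust variance and 1 lower with scaled reads per base, against 0 and 0, and leaving out each library gave 0 and 0. With the library number as a replicate block, limma called 0 members, and 10 members lay lower at an unadjusted p under 0.05, against 5 without the block; that count was 2 with scaled reads, and the higher count was 1 with no filter and with robust variance, against 2. The limma adjusted p of H2ac24 was 0.171 with the replicate block and ranged from 0.0737 to 0.9998 over the alternatives. Of 308 fold changes of 28 named members under the alternatives, 284 kept their sign and 24 did not. A member whose groups do not overlap cannot turn when 1 library is left out. H2ac1 turned positive with equal library totals (0.0190) and median-ratio scaling (0.00299). The other 22 turned when 1 library was left out: without DMSO library 4, H1f10 was −0.0512, H1f0 −0.14, H2ac14 −1.27, H2ac1 0.48, H2ac15 0.13, H2bc13 0.71 and H1f4 0.25; without DMSO library 2, H2ac12 was 0.67, H3c11 0.20, H2bc4 0.10 and H2bc1 −0.48; without CBR-5884 library 2, H2ac12 was 0.32, H2ac1 0.54, H2ac14 −1.67, H2bc13 0.71, H2bc15 0.0663 and H3c13 0.15; without CBR-5884 library 4, H4c9 was −0.21, H4c12 0.23, H3c11 0.16, H2bc4 0.0237 and H2bc1 −0.12. Log2 ratios of summed TPM were −0.0829 for the H1 genes of the chromosome 13 cluster (0.04 for all H1), 0.0001495 for H2A without H2ac24 and 0.45 with 7 outside genes (0.83 for all H2A), and −0.79 for H4 without H4c9 (−0.46 for all H4). Over the libraries left out they ranged from −0.07 to 0.14 for H1, 0.49 to 1.17 for H2A, −0.77 to 0.16 for H2B, −1.21 to −0.71 for H3 and −0.65 to −0.26 for H4. The cause of these shifts was not tested. A fit that leaves 1 library in a condition assumes that it varies like the others. Of the 70 members 37 lie at 1 to 10 TPM, and shared sequence limits the values of those that are near-copies of other genes.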
